A study of Mus musculus with 8 samples.

Results

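The genes described here are 10 mouse genes of the lipid droplet: the perilipins Plin1, Plin2, Plin3, Plin4 and Plin5, the lipases Pnpla2, Lipe and Mgll, and the acyltransferases Dgat1 and Dgat2. They were taken by gene name from the annotation of the arrays, with every probe that carries one of these names and is no control spot, which gave 17 of 56605 probes and 10 of 36693 gene names. Their signal was read once the long non-coding RNA Pvt1 had been silenced in C2C12, an established line of mouse myoblasts that can divide or fuse into muscle fibres. Total RNA of 8 cultures, all proliferating and at passage 10, was labelled with Cy3 and hybridised to 8 one-colour Agilent arrays. The Pvt1-silenced group held 4 cultures transfected with GapmeRs against Pvt1, short antisense strands that make the cell cut an RNA they bind. The negative control group held 4 cultures given negative control GapmeRs in the same way, so both groups received the same lipid reagent, Lipofectamine 2000, and an oligonucleotide. Replicates are labelled as biological and come from 1 cell line, so p-values measure the spread between cultures of that line. The labels place the cells before differentiation and give no lipid loading, so lipid droplet genes are described here as undifferentiated myoblasts in transfection medium with serum expressed them.

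Lipid droplets store neutral fat, mostly triglyceride, under a single layer of phospholipid coated with proteins. Perilipins bind that surface and control how lipases reach the fat, Plin1 being the main one of fat cells, Plin2 and Plin3 being found in most cells, Plin4 coating new droplets in fat cells and muscle, and Plin5 being typical of tissues that burn fat. Pnpla2 (also called ATGL), Lipe (hormone-sensitive lipase) and Mgll (monoglyceride lipase) remove the fatty acids of a triglyceride one after the other, while Dgat1 and Dgat2 add the last fatty acid when it is made. In muscle the released fatty acids feed the mitochondria, and the study examined lipid droplets and mitochondria after lowering Pvt1.

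The sequences of the silencing oligonucleotides are shown because they define the treated group, and both were used in it, as the labels list them.
Pvt1_1: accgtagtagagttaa
Pvt1_3: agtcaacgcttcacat

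The probes decide what each value stands for, since a gene with several probes can be read at different places along its RNA. Positions are given on mouse build mm9, as in the files, and whether a probe lies in an exon, an intron or a UTR was not analysed here. The last 30 bases of the probe for Plin4 (chr17:56240055-56240114, minus strand), the member with the larger of the 2 called changes, are given first. They are followed by those of the Pnpla2 probe (chr7:148645928-148645987, plus strand) and of the downstream Mgll probe (chr6:88778292-88778351, plus strand), which hold the polyadenylation signal AATAAA, in capitals, a mark of the 3′ end of a message.
Plin4 probe, last 30 bases: caggtctggctccctatactgctcatggta
Pnpla2 probe, last 30 bases: aaagcagatctAATAAAagccacagctcag
Mgll downstream probe, last 30 bases: ctcaccgtAATAAAaaccacgtgcttttgg
Plin1 cDNA probe, last 30 bases: tgcgtgAATAAAgttgtccaagaaaaatac

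The Plin1 probe of the last line (chr7:86873870-86873929, minus strand) was designed on a cDNA clone annotated with an apparent retained intron. Of the 17 member probes 5 hold AATAAA or ATTAAA, among them 3 of the 12 tested, against 13.4% of all 56605 probes of 60 bases. The reverse complements TTTATT and TTTAAT occur in 6.36% of all probes and in 1 member probe, that of Pnpla2. The letters describe the probe and are no measured cleavage site.

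The other probes shown are a Dgat1 probe that starts at base 1204 of its transcript and is placed over 147 bases of the genome (chr15:76333128-76333274, minus strand), and an Mgll probe (chr6:88714636-88714695, plus strand) that starts at base 666 and lies upstream of the other Mgll probe on the genome. They are printed whole because Dgat1 is set beside Dgat2 in the text, and because the upstream Mgll probe stayed at background level while the downstream one was detected.
Dgat1 probe: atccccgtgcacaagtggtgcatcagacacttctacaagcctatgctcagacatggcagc
Mgll upstream probe: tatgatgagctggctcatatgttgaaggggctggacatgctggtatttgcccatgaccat

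Pvt1 itself checked the labels. Its log2 signal was 9.86 ± 0.30 in controls and 7.004 ± 0.63 in silenced cells (SD, n = 4 each), and it fell by 2.86 (SE 0.32, limma adjusted p = 0.000682). Over all tested probes 1373 rose and 5269 fell, and the median change was -0.19 after quantile normalization, while with cyclic loess 5416 rose, 5258 fell and the median was 0.02. Changes are therefore also given relative to the median. The scanner software marks a spot as positive and significant where it differs from background, and as well above background where it exceeds it by a wider margin. Silenced replicate 4 was the dimmest array, with 51.6% of spots positive and significant against 58.8% to 62.5% on the other 7, and control replicate 3 correlated least with its own group, at 0.960 against 0.980 to 0.986.

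Of the 10 members, 2 perilipins rose after silencing, Plin4 by 2.21-fold and Plin3 by 1.56-fold, and none of the others passed the test in either direction. The 3 lipases, both acyltransferases and Plin2 did not pass it. All 10 genes had at least 1 tested probe, 12 probes in all, of which 2 were called higher and 0 lower by limma at an adjusted p under 0.05. Over all tested probes 4.79% were called higher, 18.4% lower and 23.2% in either direction. At an unadjusted p under 0.05, 3 member probes were higher and 1 was lower, against 9.34% and 27.0% of all tested probes. The estimates of the 12 probes had a median of 0.42, with 7 positive and 5 negative, and those of Plin5, Lipe and the upstream Mgll probe rest on a group with no array well above background. The remaining 5 probes, for Plin1, Plin5 and Lipe, had too few values to be tested.

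The calls on the 2 perilipins were close to the threshold. Leaving out any of control replicates 1, 2 or 4 or of silenced replicates 1, 2 or 3 left 0 member probes called higher. Over all probes 683 to 863 were then called higher, against 1373 with all arrays. Without control replicate 3 Plin4 and Plin1 were called and Plin3 was not (limma adjusted p = 0.0634). Without silenced replicate 4 the called probes were those of Plin3, Plin4, Pnpla2 and Lipe. The member count was 5 with cyclic loess and 0 with the row of the slide as a block. Over all probes 5416 and 534 were called higher in these 2 settings, so the count over the whole array moved as well.

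**Figure D1:**
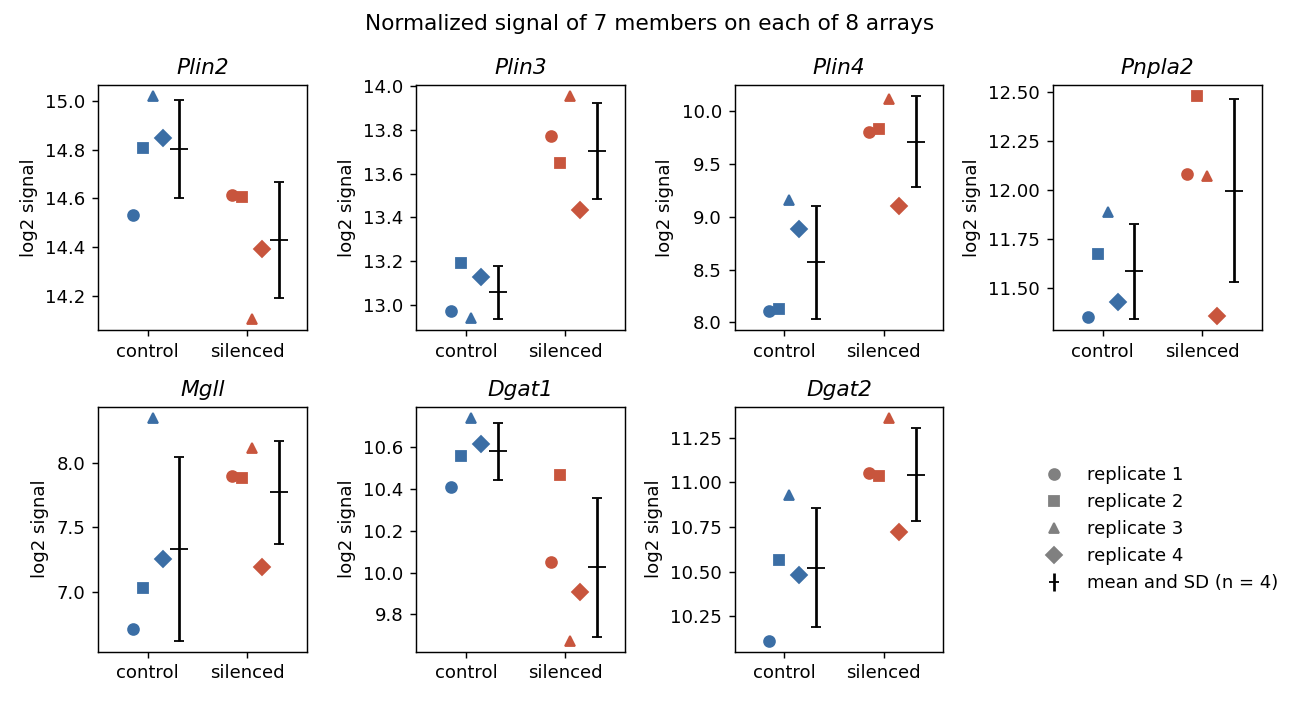
Quantile normalized log2 signal (y axis, a separate range in each panel) of the 7 members whose probe was well above background on all 8 arrays, by group. Points are arrays, shaped by replicate number, and bars are mean and SD (n = 4). The Plin3 points of the silenced group all lie above those of the controls, which in no other panel holds.

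Plin3, also called TIP47, which moves between cytosol and young droplets, gave the only member probe whose groups did not overlap. Its log2 signal in control replicates 1 to 4 was 12.97, 13.19, 12.94 and 13.13, and in silenced replicates 1 to 4 it was 13.77, 13.65, 13.95 and 13.44. Every silenced array was above every control array, with silenced replicate 4 closest to them. The change was 0.64 (SE 0.19, 95% interval 0.21 to 1.07, limma adjusted p = 0.0383), or 0.84 above the median of all probes. The exact two-sided permutation test gave p = 0.0286, the smallest that 4 against 4 allows. Groups did not overlap for 28.2% of all tested probes. Within the upper row of the slide the difference was 0.74 (3 control arrays and 1 silenced), and within the lower row it was 0.55 (1 control array and 3 silenced), while with the row as a block adjusted p was 0.143.

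Plin4, the perilipin named S3-12 in fat cells, had the larger estimated change of the 2. Its log2 signal was 8.10, 8.13, 9.16 and 8.89 in the controls and 9.80, 9.83, 10.12 and 9.10 in the silenced cultures. Silenced replicate 4 lay just under control replicate 3, and the other 3 silenced arrays lay above all controls. It rose by 1.14 (SE 0.32, 95% interval 0.44 to 1.85, limma adjusted p = 0.0282), or 1.34 above the median, with an exact permutation p of 0.0571. The difference was 1.34 within the upper row of the slide and 0.80 within the lower one, and with the row as a block it was 1.07 with an adjusted p of 0.113.

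Plin2, the adipophilin that coats droplets in most cells, is read by 2 probes, and neither passed the test. The probe with the higher signal starts at base 1449 of the transcript (chr4:86302847-86302906, minus strand). It stood at 14.53, 14.81, 15.02 and 14.85 in the controls and at 14.61, 14.61, 14.10 and 14.39 in the silenced cultures. Control replicate 1 lay among the silenced arrays, so the groups overlapped. The change was -0.37 (SE 0.21, 95% interval -0.83 to 0.09, limma adjusted p = 0.225), which is -0.18 relative to the median. The second probe starts at base 91 of the same transcript, and only 7 of its 60 bases are placed on the genome in the files. Its values ranged from 8.29 to 9.29 in controls and from 8.18 to 8.92 in silenced cells, and its change of -0.26 (limma adjusted p = 0.560) turned positive under other normalizations, reaching 0.08 with cyclic loess. The within-array difference between the 2 probes differed between groups by 0.12 (exact permutation p = 0.80).

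Across the 8 arrays the probes most like the Plin2 probe were those of Abhd8 (Pearson r = 0.993), Ninj1 (r = 0.986) and Sipa1 (r = 0.985). These values describe 8 arrays that hold both groups, and carry no test. None of these genes was called, their changes being -0.59, -0.60 and -0.59.

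Plin1 and Plin5, the perilipins of fat cells and of oxidative tissue, were at or near background. The retained-intron cDNA probe of Plin1 was well above background on 1 control array and on all 4 silenced arrays. It read 6.08, 5.51, 6.77 and 6.001 in the controls and 6.72, 7.14, 6.46 and 7.25 in the silenced cultures. Control replicate 3 lay above 2 of the silenced arrays. The difference was 0.80 (SE 0.30, limma adjusted p = 0.0825). The other 2 Plin1 probes, including the one on the RefSeq transcript, reached that mark on no array and were not tested. For Plin5 neither of 2 probes was well above background on any array, so no fold is given. The tested one ranged from 4.23 to 5.80 in controls and from 4.04 to 5.45 on the 3 silenced arrays with a value (limma adjusted p = 0.521).

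**Figure D2:**
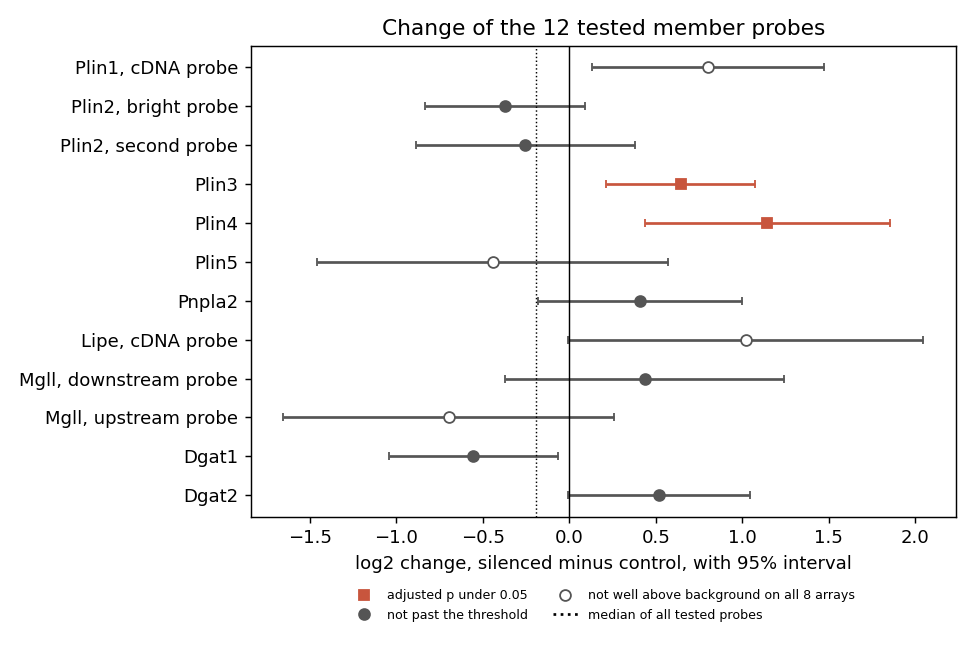
Log2 change (x axis, silenced minus control) of each tested member probe with its 95% interval from limma. Red squares mark Plin3 and Plin4, the probes past an adjusted p of 0.05, open circles mark probes not well above background on all 8 arrays (for Plin5, Lipe and upstream Mgll a whole group was at background level, so their points give no measured size), and the dotted line is the median of all tested probes at -0.19.

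Among the lipases, Pnpla2 and the downstream probe of Mgll were well above background on every array. Pnpla2, which starts the breakdown of triglyceride, read 11.35, 11.67, 11.89 and 11.43 in the controls and 12.08, 12.48, 12.07 and 11.36 in the silenced cultures. Silenced replicates 1 to 3 lay above all controls and silenced replicate 4 among them. The difference was 0.41 (SE 0.26, 95% interval -0.18 to 1.00, limma adjusted p = 0.299). Without silenced replicate 4 it was 0.62 and was called.

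Lipe, which acts on diglyceride, had no probe well above background on all arrays. Its only tested probe, designed on a testis cDNA (chr7:26167986-26168045, minus strand), passed that mark on 2 silenced arrays and on none of the controls. It read 3.95, 5.84, 5.04 and 4.88 in the controls and 6.13, 6.36, 6.49 and 4.81 in the silenced cultures. Silenced replicates 1 to 3 lay above all controls and replicate 4 within their range. The probe was not called (limma adjusted p = 0.140), and no size is given because no control array was well above background. It was called higher in 5 of 20 alternative settings, which were cyclic loess (limma adjusted p = 0.0196), the authors' table (0.0324), no mask (0.0375), and the fits without silenced replicate 4 alone (0.0306) or with control replicate 3 left out too (0.0333). The probe on the RefSeq transcript was positive on 1 array of each group and well above background on none. The remaining probe, the farthest upstream (chr7:26182789-26182848, minus strand), was well above background on control replicate 1 alone, at 6.77, and had no value on any silenced array. It was positive on 2 control arrays in all, so it was not tested and no fold is given.

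Mgll, which releases the last fatty acid, has 2 tested probes, of which the downstream one was detected. The downstream probe read 6.71, 7.03, 8.35 and 7.26 in the controls and 7.90, 7.88, 8.11 and 7.19 in the silenced cultures. Control replicate 3 was the highest of all 8 arrays. The difference was 0.44 (SE 0.36, limma adjusted p = 0.421). Across 21 alternative settings it ranged from 0.23 to 0.97 and was called in 1. The upstream probe was never well above background and was not called (limma adjusted p = 0.271, 3 silenced arrays), so neither a size nor a comparison of the 2 probes is given.

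Position along the transcript went with the change over the whole array. For 650 genes with 2 probes 300 to 1000 bases apart, the median of the upstream minus the downstream log2 signal was -0.98 ± 0.18 in controls and -1.86 ± 0.24 in silenced cells (exact permutation p = 0.0286). Tested probes that hold AATAAA or ATTAAA had a median change of 0.17 (437 higher and 283 lower of 4265), and those without had one of -0.26. The part of probe position in the members' changes was not tested.

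The acyltransferases had differences of opposite sign, and neither passed the test. Dgat1, the enzyme of the endoplasmic reticulum that also re-esterifies released fatty acids, read 10.41, 10.56, 10.74 and 10.62 in the controls and 10.05, 10.47, 9.67 and 9.91 in the silenced cultures. Only silenced replicate 2 lay within the range of the controls. The difference was -0.56 (SE 0.22, 95% interval -1.04 to -0.07, limma adjusted p = 0.0956), or -0.36 relative to the median. Dgat2, which makes triglyceride at the droplet itself, read 10.11, 10.57, 10.93 and 10.48 in the controls and 11.05, 11.04, 11.36 and 10.72 in the silenced cultures. Silenced replicate 4 lay under control replicate 3, and the other silenced arrays lay above all controls. The difference was 0.52 (SE 0.24, 95% interval -0.01 to 1.05, limma adjusted p = 0.142), or 0.71 above the median. With cyclic loess, with the authors' table and without the mask of dim spots Dgat2 was called, at 0.67, 0.72 and 0.73.

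Differences between members within an array do not depend on a shift of the whole array, and were compared for all 21 pairs of the 7 well-detected members, a comparison chosen after the values were seen. The signal of Dgat2 minus that of Dgat1 was -0.06 ± 0.21 in controls and 1.02 ± 0.48 in silenced cells, a difference of 1.08, with no overlap between groups. Plin3 minus Plin2 differed by 1.02, Plin4 minus Plin2 by 1.52, Pnpla2 minus Plin2 by 0.78 and Dgat2 minus Plin2 by 0.89. In 9 of 21 pairs the groups did not overlap, a share near the 41.6% of all pairs of the 13018 genes well above background on all 8 arrays, so it is no result about these members. The exact permutation p of each of the 9 was 0.0286, the smallest possible, and 0.0667 after Benjamini-Hochberg adjustment over the 21, so 0 pairs passed. The pairs share probes, and the sign of each follows from the single differences above.

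**Figure D3:**
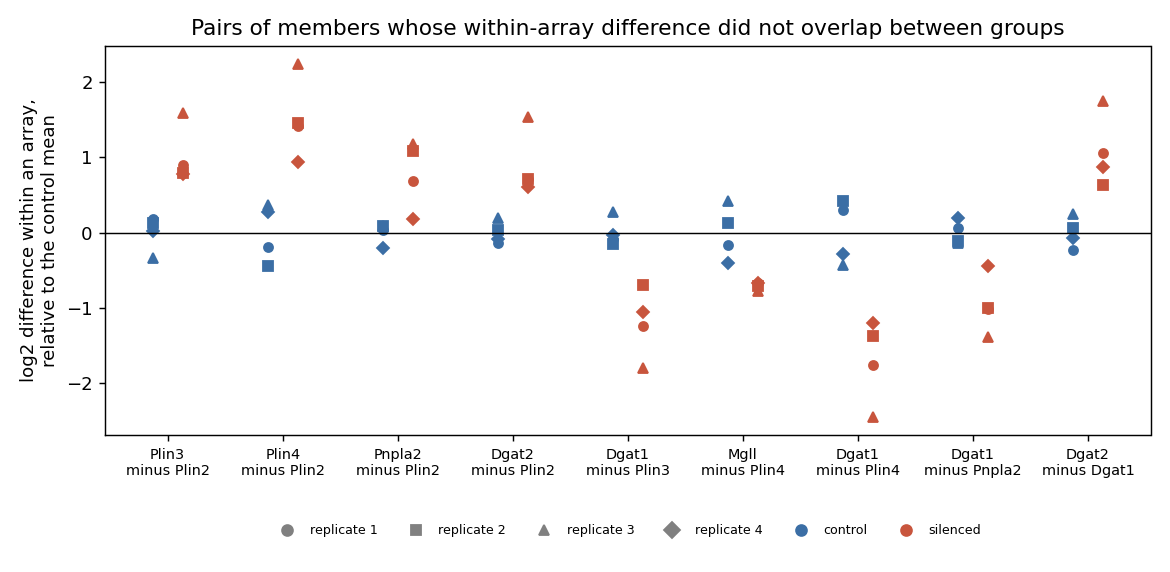
Log2 difference between 2 members on the same array (y axis), set to 0 at the mean of the controls, for the 9 pairs whose groups did not overlap. Points are arrays, blue for control and red for silenced, shaped by replicate number. Dgat2 minus Dgat1 and the differences from Plin2 are higher on the silenced arrays, and Dgat1 minus Plin3, Plin4 or Pnpla2 and Mgll minus Plin4 are lower.

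The direction of most members held across settings while the calls did not. Plin3 stayed positive in 21 of 21 alternatives, between 0.56 and 0.85, and was called in 12. Plin4 stayed between 0.98 and 1.54 and was called in 13. Dgat2 stayed between 0.38 and 0.76 and was called in 4, and Dgat1 stayed between -0.70 and -0.33 and was called in 3. The Plin2 probe with the higher signal stayed between -0.46 and -0.15 and was called in 0.

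**Figure D4:**
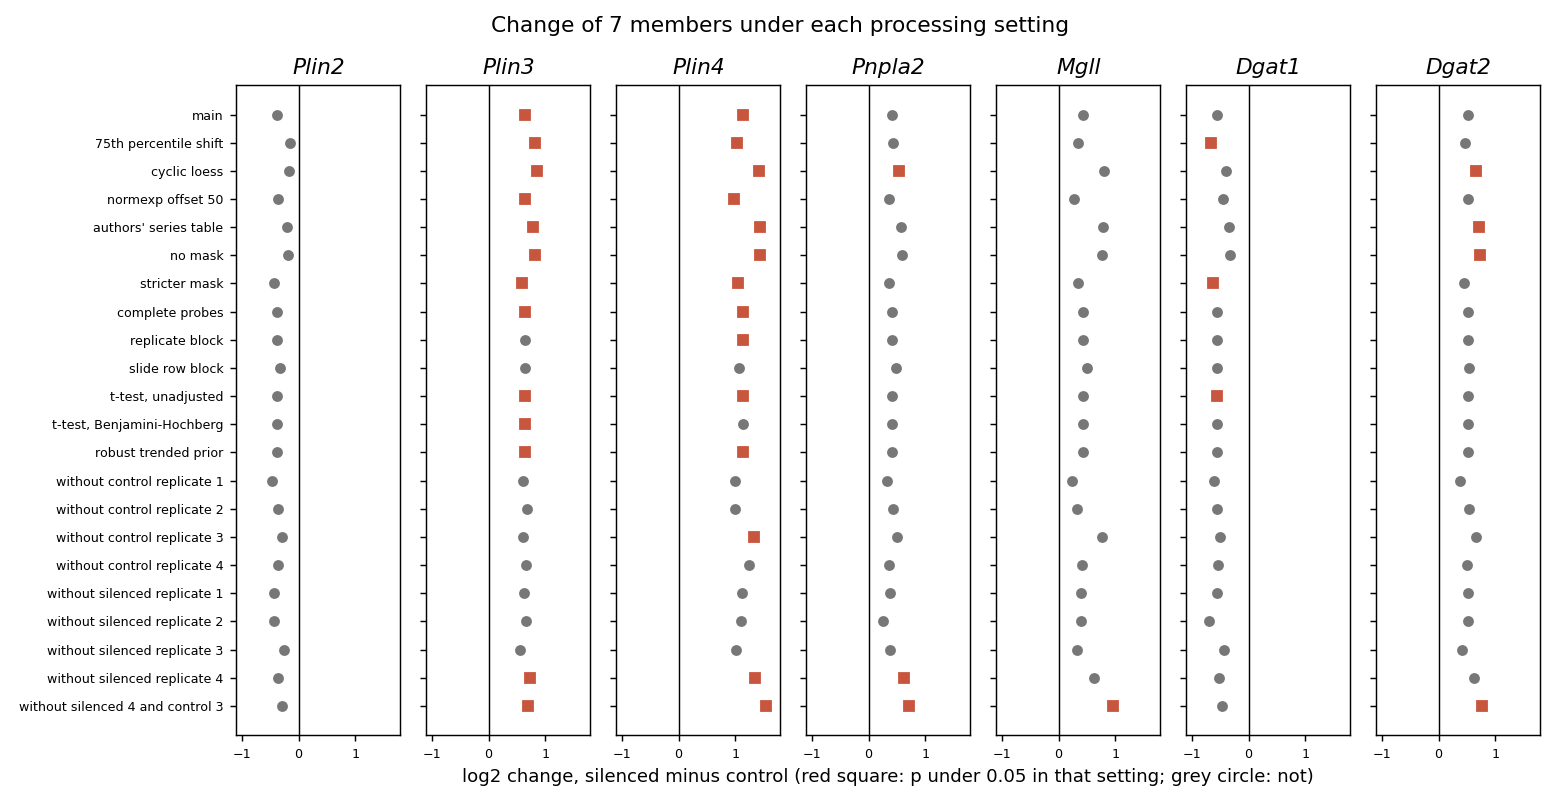
Log2 change (x axis, silenced minus control) of the 7 well-detected members under each processing setting (rows). Red squares are past p under 0.05 in that setting, adjusted except in the row named unadjusted, and grey circles are not. All 7 members keep their side of 0 in every row, Plin2 and Dgat1 on the left and the others on the right.

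Beyond the members, 89 further genes of lipid storage were read from 5 lists, each gene by its brightest probe. Of 76 tested genes 6 rose and 10 fell. With the row of the slide as a block 2 were called higher (Mogat2 and Lpin1) and 4 lower (Abhd12, Rab3gap1, Aup1 and Cebpa). Of all 19360 tested genes 5.99% were called higher and 14.0% lower, with a median of -0.09.

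Of 11 tested lipase partners and further neutral lipases 1 rose and 2 fell, with a median of 0.17. These are 9.09% and 18.2%, near the 5.99% and 14.0% of all tested genes, so the counts are no result about this list. Abhd5, the protein also called CGI-58 that activates Pnpla2, went from 9.86 ± 0.34 to 10.71 ± 0.40 (SD, n = 4), a change of 0.85 (limma adjusted p = 0.0433). The other 2 probes of Abhd5 changed by -0.02 and -0.004, so its rise was seen at 1 of 3 probes. Abhd12, a lysophospholipid and monoglyceride lipase, fell by 1.38 (limma adjusted p = 0.00286), from 10.53 ± 0.20 to 9.16 ± 0.32, and its second probe changed by -1.17 and was called as well. Pnpla7, a lysophospholipase of the same family as Pnpla2, fell by 1.10 (limma adjusted p = 0.0442).

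In the synthesis of glycerolipids ahead of the Dgat step, 3 of 15 tested genes rose and 0 fell, with a median of 0.20. Mogat2, which joins a fatty acid to monoglyceride and so makes the substrate of the Dgat enzymes, rose by 1.72 (SE 0.30, limma adjusted p = 0.00430), from 7.66 ± 0.49 to 9.38 ± 0.42. Lpin1, a phosphatidate phosphatase that yields diglyceride, rose by 1.28 (SE 0.21, limma adjusted p = 0.00313), from 6.55 ± 0.22 to 7.84 ± 0.25, and its second probe, well above background on no control array, was at least 1.79-fold higher in silenced cells (limma adjusted p = 0.0120). Agpat4, an acyltransferase for lysophosphatidate, rose by 0.78 (limma adjusted p = 0.0262), while its second probe stood at -0.54 and was not called. Mogat2 and Lpin1 were called in 21 of 21 alternatives and Agpat4 in 12.

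Of the genes of droplet assembly and coat, 1 of 20 tested rose and 4 fell, with a median of -0.42. Ldaf1 (Tmem159 on the array), a partner of seipin where droplets form, rose by 0.79 (limma adjusted p = 0.0400). Its second probe stood at 1.01 and was not called (limma adjusted p = 0.200). Rab3gap1, part of the exchange factor for Rab18, fell by 1.38 (limma adjusted p = 0.00509) and was called lower at 2 of its 5 tested probes. Aup1, a droplet protein of the ubiquitin system, fell by 1.14 (limma adjusted p = 0.00892). Spart (Spg20 on the array), which takes part in droplet turnover, fell by 0.84, and Snap23, a SNARE of membrane fusion, fell by 0.87 at its brightest probe, while another Snap23 probe stood at 0.60 and was not called.

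Of fatty acid uptake and delivery, 0 of 13 tested genes rose and 3 fell, with a median of -0.20. Slc27a1, the fatty acid transporter FATP1 of muscle and fat, fell by 2.17 (SE 0.59, limma adjusted p = 0.0261). Its controls read 11.98, 12.28, 9.34 and 12.20 and its silenced cultures 9.36, 9.60, 9.03 and 9.14. Control replicate 3 was apart from the other controls and at the level of the silenced arrays, and without it Slc27a1 fell by 2.87 (SE 0.22). Slc27a4 fell by 1.06 and Acsl5, which activates fatty acids to their CoA esters, by 0.82 (limma adjusted p = 0.0255 and 0.0171). With the row of the slide as a block none of the 3 was called, at limma adjusted p of 0.0569, 0.117 and 0.0946. The second Acsl5 probe stood at -0.57 and was not called. That of Slc27a4, well above background on 1 control array alone, was called lower (limma adjusted p = 0.00436).

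Of transcription factors and coactivators of lipid storage genes, 1 of 17 tested rose and 1 fell, with a median of -0.09. Mlxipl, or ChREBP, the glucose-responsive factor, rose by 0.84 at its brightest probe (limma adjusted p = 0.0364), while another of its probes, well above background on the 4 control arrays alone, was at least 2.31-fold higher in controls (limma adjusted p = 0.00290), so the direction for this gene depends on the probe. Cebpa, a factor of fat cell differentiation, was well above background on the 4 control arrays and on no silenced one, and was at least 1.84-fold higher in controls (limma adjusted p = 0.00874).

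**Figure D5:**
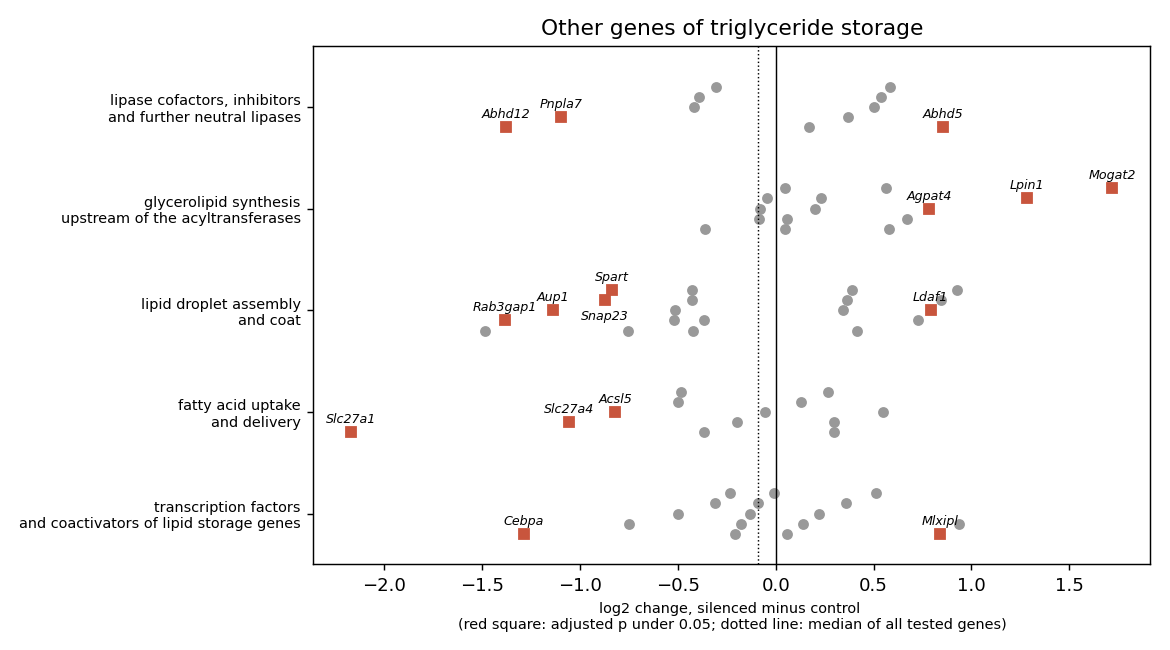
Log2 change (x axis, silenced minus control) of the 76 tested genes of 5 lists of lipid storage genes, each by its brightest probe, spread vertically within a list to be seen. Red squares with names are the 6 genes that rose and the 10 that fell, and the dotted line is the median of all tested genes at -0.09.

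Marker lists were read because lipid genes are also expressed in other cell types, and in bulk RNA fewer cells of a type and less RNA per cell cannot be told apart. Of 13 adipocyte markers 7 were tested, 0 rose and 1 fell (Lep, with a change of -0.92). This list overlaps the genes above, since it holds the member Plin1 and also Cidec, Fabp4 and Pparg of the lipid storage lists. Lep, Fabp4 and Pparg were well above background on all 8 arrays and Slc2a4 on 7, while Adipoq, Retn, Cfd, Pck1, Thrsp and Adrb3 were so on none. The summed signal of the list ranged from 3516 to 8795 in controls and from 3343 to 4177 in silenced cells. The upper end came from Adig on control replicate 1, at 12.26 (log2) against 3.88 to 4.70 on the other 7 arrays, and without Adig the sums were 3500 to 4194 and 3324 to 4162. Of 10 myoblast markers, all tested, 0 rose and 3 fell (changes of -1.95 for Myod1, -1.35 for Des and -0.86 for Cdh15), with a summed signal of 147056 to 178137 in controls and 108469 to 137833 in silenced cells. Myf5 and Dll1 were well above background on no array. Of 8 tested differentiated muscle markers 0 rose and 2 fell (changes of -2.04 for Mymk, on the array as Tmem8c, and -1.88 for Acta1), and the summed signal ranged from 5148 to 7033 in controls and from 3724 to 4111 in silenced cells.

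Some liver markers were higher in silenced cells. Of 24 on the list 11 were tested, 6 rose and 0 fell, with a median of 1.26 and a summed signal of 1465 to 2251 in controls against 6728 to 8438 in silenced cells. Apoc1 was at least 5.41-fold higher in silenced cells, Fgg at least 1.81-fold and Itih4 at least 1.31-fold, none of them well above background on any control. Serpina1b rose by 1.94 and Mup3 by 1.26. Albumin (Alb) had too few control values to be tested and was at least 10.2-fold higher in silenced cells, Mup1 at least 25.0-fold and Serpina1a at least 12.2-fold, and these were named after their values were seen. The Mup and Serpina1 genes belong to families of closely similar copies, so their values are uncertain by gene. Apoa2, well above background on all 8 arrays, stood at -0.15 and was not called, nor was Hpx, well above background on 2 control arrays and no silenced one. Apoa1, Apoc3, Apoh, Fga, Cps1 and Tat were well above background on no array. The part of these markers in the changes of Plin3, Plin4, Mogat2 and Lpin1 was not tested.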

How the data were processed

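Per the file headers, the deposited scanner files hold the spot intensity on a linear scale from Feature Extraction 12.0.0.7 (10.7.3.1 per the labels), background-subtracted and not normalized between arrays. They also hold flags of 0 or 1, and the authors deposited a series table of quantile normalized intensity, used as an alternative. These deposited flags were used to set spots not positive and significant to missing, as in the study's methods, and flagged outlier spots were removed. From the deposited intensity log2 values were taken, quantile normalized and averaged over the spots of a probe. All 8 arrays lay on 1 slide read in 1 scan. The 28649 of 56605 probes that had 3 or more of the 4 values per group entered a limma 3.58.1 fit (R 4.3.3) with group as its only term and Benjamini-Hochberg adjustment at 0.05 over all of them. The number of arrays limits the precision.

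Where a whole group lay under the mark for signal well above background, a bound was sought: the other group's mean against, per array, the higher of its own value and the lowest signal among probes well above background. It could be given only where that mean was the higher, which was not so for Lipe. Summed signals are linear, over each listed gene's brightest probe by mean over all 8 arrays and without the mask. The members, lists and tests were chosen with earlier results of these data known. All members were named with all their probes, and so were the called genes of each list, at most 5 in each direction by size, and the 3 genes most correlated with Plin2. All 13 member probes with a RefSeq accession matched the same symbol in the RefSeq gene table.

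Alternatives tried were cyclic loess, a 75th percentile shift, a normexp correction (offset 50), values of the authors' table, no mask and a stricter one, complete probes, the replicate number and the slide row as blocks, the t-test with unequal variance that the study names for these arrays, a robust trended prior, the mean of a gene's probes and leaving out each array. Leaving out silenced replicate 4 and control replicate 3 together was added after seeing the data. A fit was tested on simulated data for silenced against control over 28649 probes, with 100 probes changed at each size. The share recovered was 77% at a change of 2 on the log2 scale and 7% at a change of 1. That fit called 89 probes against 6642 in the real one, so its cutoff on the unadjusted p was stricter. These shares are therefore no measure of what the real fit could detect. Figures were drawn with matplotlib 3.10.9. Sequences are printed for 6 of the 17 member probes.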

Additional observations from a re-analysis of the deposited data

Results flagged for a closer look

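One of the 56 groups of 4 values checked for an outlying sample stood out. The Slc27a1 signal of control replicate 3 was 9.34 (log2), against 11.98 to 12.28 on the other control arrays, and its gap to the nearest was 0.898 of the group's range, above Dixon's critical value for 4 samples. Chance marks about 1 in 20 such groups.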

How the results depend on the processing

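Of the member values, only the second Plin2 probe changed direction, from -0.26 to 0.075 with cyclic loess, 0.044 with the authors' table and 0.041 with no mask. Member probes called higher, 2 as reported, were 5 with cyclic loess, 4 with the authors' table, 4 with no mask, 1 with the replicate block, 0 with the slide row as a block, 1 with the unequal-variance t-test after Benjamini-Hochberg adjustment and 7 without silenced replicate 4 and control replicate 3 together, and between 0 and 4 when 1 array was left out. Member probes called lower were 1 instead of 0 with the 75th percentile shift, with the stricter mask and with the unadjusted t-test, that probe being Dgat1, and 0 whichever array was left out. Over all probes those called higher, 1373 as reported, were 2165 with the 75th percentile shift, 5416 with cyclic loess, 4509 with the authors' table, 4990 with no mask, 534 with the slide row, 2232 and 566 with the t-test before and after adjustment and 5340 without both arrays, and 683 to 3563 when 1 array was left out. Those called lower, 5269 as reported, were 2573 with the slide row, 2854 with the adjusted t-test and 2984 to 5732 when 1 array was left out. Pathway genes called higher, 6 as reported, were 19 with cyclic loess, 17 with the authors' table, 17 with no mask, 2 with the replicate block, 2 with the slide row, 2 with the adjusted t-test, 2 by the mean of a gene's probes, 21 without both arrays, and 2 to 14 when 1 array was left out. Pathway genes called lower, 10 as reported, were 5 with the authors' table, 5 with no mask, 4 with the slide row, 3 with the adjusted t-test and 4 to 10 when 1 array was left out. The cause of these shifts was not tested. With the replicate block 1023 probes were higher and 3994 lower, and Plin3 lost its call (limma adjusted p = 0.117). Same-numbered samples deviated together with correlations of -0.04, 0.19, 0.22 and 0.06, and for numbers 2 and 3 each was the other's closest match. The numbers were not taken as pairs, and these values cannot tell whether the cultures were paired. Dim signal limits what can be said of Plin1, Plin5, Lipe and the upstream Mgll probe.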
